A study of Homo sapiens with 8 samples.

Results

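Oncofetal genes are active in the fetal liver, silent or low in the adult organ, and often transcribed again in liver cancer. The 10 genes described here are SALL4, AFP, GPC3, IGF2BP1, IGF2BP2, IGF2BP3, LIN28B, HMGA2, H19 and IGF2. They were picked by symbol, through their NCBI Gene IDs, and the rise of SALL4 in siXBP1 libraries was known when they were picked. Of the 10 genes, 8 have a row among the 18555 of the count table, and 6 passed the filter on low counts (SALL4, HMGA2, H19 and the 3 IGF2BP genes). AFP and LIN28B have a row but did not pass it. GPC3 (chromosome X, 133535745 to 133985594) and IGF2 (chromosome 11, 2129117 to 2149566) have no row and were not detected in the table used here, so no count and no upper limit is given for them. A missing row was not read as a count of 0, because RPS18, TUBB and YTHDC1, which nearly all cells transcribe, have none either.

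The study set 3 libraries of cells transfected with an siRNA specific for XBP1 (siXBP1) against 3 libraries of cells given Allstar control siRNA (siNC). XBP1, spliced by IRE1 when proteins misfold in the endoplasmic reticulum (ER), encodes a transcription factor of the unfolded protein response. Thapsigargin, given to all 6 at 30 nM for 3 hours beginning 2 days after transfection, empties ER calcium and sets off that response, so no RNA-seq library here comes from unstressed cells. The labels give the cells as HepG2, an established human line from a liver tumour, without stating if the replicates were grown separately. The series also has 2 XBP1s ChIP-seq samples, not analysed here.

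Several of these genes are tied together by a small RNA. LIN28B encodes an RNA-binding protein that blocks the maturation of let-7 microRNAs, and HMGA2, IGF2BP1, IGF2BP2, IGF2BP3 and LIN28B itself are textbook let-7 targets. SALL4 is a zinc finger transcription factor of embryonic stem cells and fetal liver that recruits the NuRD co-repressor. AFP is the main serum protein of the fetus, GPC3 a heparan sulfate proteoglycan of the cell surface, and IGF2 a fetal growth factor. H19 is an imprinted long non-coding RNA next to IGF2 and the host transcript of miR-675.

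The sequences below are shown because they are what joins the let-7 targets and what H19 is processed into. The microRNAs themselves were not measured. Capitals mark the seed, bases 2 to 8, and the sequences are from RefSeq, GRCh38.p14. All 9 members of the let-7 family looked up, miR-98 included, carry the seed GAGGUAG. The 2 arms of miR-675 have seeds that differ from it and from each other.
hsa-let-7a-5p: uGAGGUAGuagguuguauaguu
hsa-let-7b-5p: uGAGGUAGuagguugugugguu
hsa-let-7d-5p: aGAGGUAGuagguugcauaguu
hsa-let-7e-5p: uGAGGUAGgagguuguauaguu
hsa-miR-675-5p: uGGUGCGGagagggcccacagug
hsa-miR-675-3p: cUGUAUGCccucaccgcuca

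AFP is the classic product of HepG2 cells, so its promoter is shown as well. The run covers the 250 bases before the AFP start site, chr4:73435971-73436220 of GRCh38.p14 on the plus strand. Capitals mark the match to the TATA box TATAAA, searched on both strands, which begins 29 bases before the start. Among all 35116 promoter windows of 300 bases in the RefSeq table, 11.5% hold TATAAA on either strand. A match is a description of letters, not of binding.
AFP promoter: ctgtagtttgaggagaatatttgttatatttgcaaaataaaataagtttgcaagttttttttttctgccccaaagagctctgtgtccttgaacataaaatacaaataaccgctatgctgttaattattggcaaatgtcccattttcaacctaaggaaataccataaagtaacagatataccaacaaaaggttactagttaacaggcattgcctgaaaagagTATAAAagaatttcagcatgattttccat

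Library totals ran from 38209972 to 38890070 counts, and values are given as CPM, a gene's count scaled to the total of its library. A floor of 3 counts, the one-sided limit that a count of 0 allows, equals 0.0771 to 0.0785 CPM. It covers counting error only and takes counts as independent. Of counts from 1 to 40, 75.8% to 80.5% were even, so the counts may not be independent, and floors and Poisson intervals may then be too low and too narrow. XBP1 itself averaged 288 ± 11.4 CPM in siXBP1 and 518 ± 29.5 CPM in siNC libraries (SD, n = 3 each), so about 55.7% of its mRNA remained. edgeR's quasi-likelihood test with Benjamini-Hochberg adjustment called 1 of 14337 genes (0.00697%), XBP1, and 0 genes higher in siXBP1, while 517 genes had an unadjusted p under 0.05. That call ended when siXBP1 replicate 1 or 2 or siNC replicate 2 or 3 was left out. DESeq2 called 15 genes (0.105%, with 0.0418% higher and 0.0628% lower in siXBP1), of which 0 were oncofetal genes. The libraries also differed along a first principal component, which held 59.1% of the variance and put siXBP1 replicate 3 (-0.648) and siNC replicate 1 (0.643) at opposite ends, with the other 4 between -0.29 and 0.239.

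SALL4 (gene ID 57167, chromosome 20, 51782331 to 51802521) had 303, 346 and 266 counts in the siXBP1 libraries, against 246, 179 and 197 in the siNC libraries. Every siXBP1 library was above every siNC library, and the nearest pair was siXBP1 replicate 3 with siNC replicate 1. These are the 2 libraries at the ends of the first component. With exact Poisson 95% intervals, which cover counting error only, siXBP1 replicate 3 lay between 235 and 300 counts and siNC replicate 1 between 216 and 279, so these 2 counts could not be told apart at this depth. In CPM, SALL4 averaged 7.92 ± 0.981 in siXBP1 and 5.35 ± 0.884 in siNC (SD, n = 3 each), a ratio of 1.48.

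The log2 fold change of SALL4, siXBP1 over siNC, was 0.57 (SE 0.18). It is given with no test, because this rise is what brought SALL4 into the set. Among all genes tested, 388 (2.71%) had a higher estimate. With 1 library left out in turn the estimate lay between 0.46 and 0.70. It was 0.65 (SE 0.16) once the first component entered as a covariate and 0.79 (SE 0.20) with both end libraries left out. These are descriptions too. The covariate fit called 1.2% of all genes (0.711% higher and 0.488% lower), and the fit without both end libraries 4.87% (1.45% higher and 3.42% lower). Of the 6 oncofetal genes that passed the filter, 0 were called by edgeR, and SALL4 was the only one with no overlap between the groups. Groups did not overlap for 8.75% of all genes tested, 5.01% higher and 3.74% lower in siXBP1, and nothing is read from the count of 1, since SALL4 was chosen on this contrast.

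**Figure D1:**
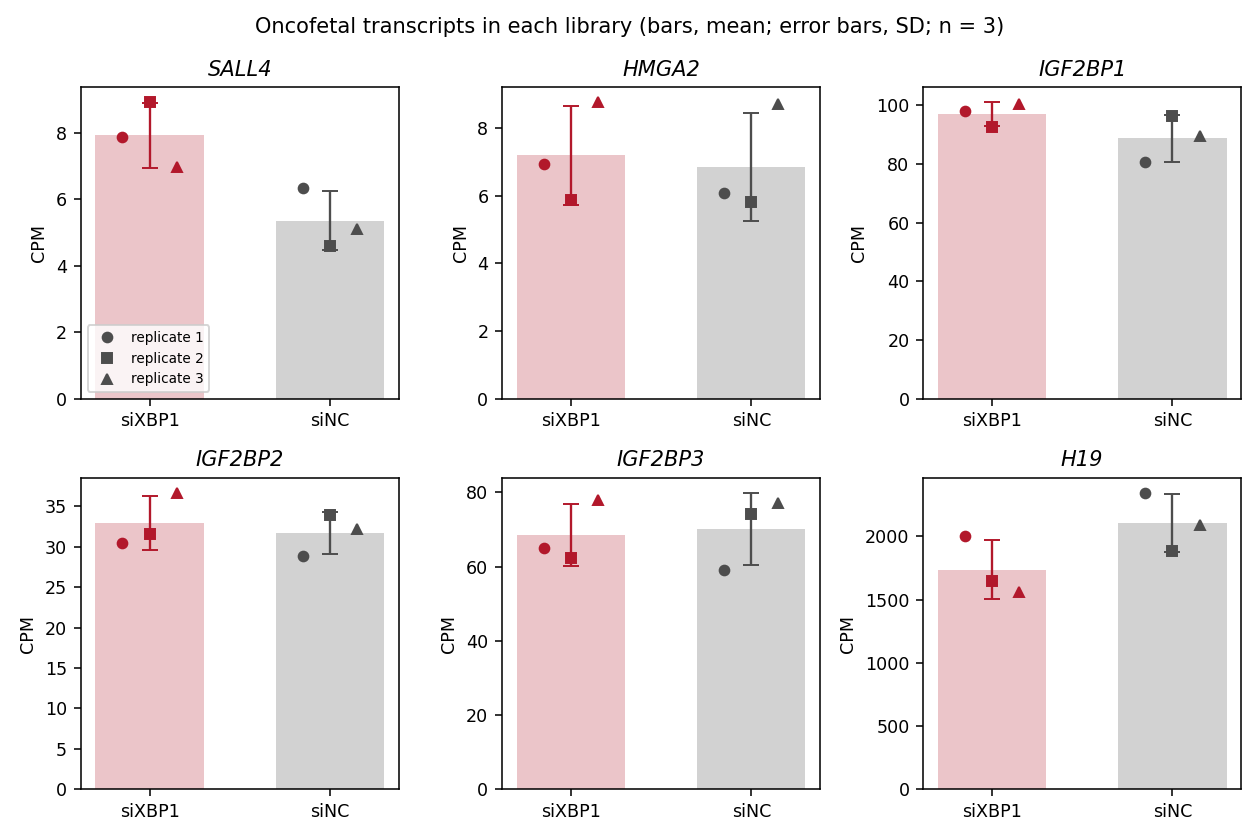
CPM of the 6 oncofetal genes that passed the filter, with each library as a point, siXBP1 left of siNC, bars at the mean and error bars of 1 SD (n = 3 each). SALL4 is the panel in which no siXBP1 point lies at or below a siNC point, and in the other 5 panels the groups overlap.

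Of the other SALL genes, SALL2 had a count in a single library, 4 in siXBP1 replicate 2, and SALL1 and SALL3 have no row. NuRD, the histone deacetylase and chromatin remodelling complex that SALL4 binds, was transcribed throughout. Of 24 other genes of the list for SALL proteins and NuRD, 21 were tested, and 0 were called in either direction, with 6 estimates above 0 and 15 below. The median log2 fold change was -0.03, against 0.01 over all genes tested. RBBP7, a histone chaperone of NuRD, averaged 351 ± 12.6 CPM in siXBP1 and 361 ± 7.90 CPM in siNC. The lowest estimate among genes of at least 1 CPM was that of MBD3, a methyl-CpG-binding domain protein of NuRD (-0.21, SE 0.18), and the highest that of DNMT3B, a DNA methyltransferase (0.11, SE 0.15). MTA1 was the gene of the list whose groups did not overlap, with siXBP1 lower, as 3.74% of all genes tested were. CRBN, the ubiquitin ligase receptor through which thalidomide drugs degrade SALL4, had 30.7 ± 2.64 CPM in siXBP1 and 30.1 ± 2.45 in siNC (n = 3 each).

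Of 10744 genes of at least 5 CPM, the 5 whose log2 CPM followed SALL4 most closely over the 6 libraries were OPTN (Pearson's r = 0.995), YIPF1 (0.988), FGFBP1 (0.988), ATF3 (0.985) and ARHGEF3 (0.985). With 6 points, 2 groups and a shared depth and gradient, this is a description of these libraries only. OPTN, an autophagy receptor, averaged 151 ± 8.20 CPM in siXBP1 and 129 ± 8.94 in siNC. FGFBP1, which releases fibroblast growth factors from the matrix, averaged 12.6 ± 1.12 CPM in siXBP1 and 8.34 ± 0.998 in siNC. ATF3, a stress-induced transcription factor, averaged 106.5 ± 7.82 CPM in siXBP1 and 79.5 ± 6.99 in siNC (SD, n = 3 each). All 5 have positive log2 fold changes, from 0.21 for YIPF1 to 0.60 for FGFBP1, which is the direction the choice by likeness to SALL4 favours.

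The let-7 targets that were measured were transcribed in all 6 libraries, while LIN28B was near the floor. LIN28B (gene ID 389421, chromosome 6, 104937026 to 105083332) had 4, 0 and 4 counts in the siXBP1 libraries, against 0, 6 and 4 in the siNC libraries. Both groups hold a library with no count, where the floor is 0.0774 CPM in siXBP1 replicate 2 and 0.0771 CPM in siNC replicate 1. Every count of LIN28B is even, so these floors may be too low. No fold change is given for it. Its paralogue LIN28A, which also blocks let-7, had 4 counts in siXBP1 replicate 1 and none in the other 5 libraries.

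HMGA2 (gene ID 8091, chromosome 12, 65824460 to 65966291), a chromatin protein of embryonic growth, had 6.94, 5.88 and 8.77 CPM in siXBP1, against 6.07, 5.81 and 8.70 CPM in siNC. Replicate 3 was highest in both groups, and the groups covered nearly the same range. Within siXBP1 the highest library was 1.49 times the lowest and within siNC 1.496 times, while the ratio of the group means was 1.05. The log2 fold change was 0.07 (SE 0.21). It was -0.11 without siXBP1 replicate 3 and 0.27 without siNC replicate 3, so its sign rests on single libraries. HMGA1, the paralogue, averaged 552 ± 63.9 CPM in siXBP1 and 589 ± 33.1 CPM in siNC (n = 3 each), with a log2 fold change of -0.09 (SE 0.10, edgeR adjusted p = 0.9998).

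IGF2BP1, IGF2BP2 and IGF2BP3 encode RNA-binding proteins that stabilise growth-promoting mRNAs, among them IGF2 and MYC. IGF2BP1 (gene ID 10642, chromosome 17, 48996558 to 49056145) had 98.2, 92.6 and 100.4 CPM in siXBP1, against 80.5, 96.4 and 89.3 CPM in siNC. The siNC range reached into the siXBP1 range through siNC replicate 2, which exceeded siXBP1 replicate 2. The means were 97.0 ± 4.02 CPM in siXBP1 and 88.7 ± 7.95 CPM in siNC (SD, n = 3 each). The log2 fold change was 0.13 (SE 0.10) and stayed above 0 in the 6 fits with a library left out, from 0.06 to 0.19.

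IGF2BP2 (gene ID 10644, chromosome 3, 185643130 to 185825042) had 30.5, 31.6 and 36.7 CPM in siXBP1, against 28.9, 34.0 and 32.2 CPM in siNC. IGF2BP3 (gene ID 10643, chromosome 7, 23310209 to 23470491) had 65.1, 62.2 and 78.0 CPM in siXBP1, against 59.0, 74.2 and 77.2 CPM in siNC. For both genes siXBP1 replicate 3 was the highest library and siNC replicate 1 the lowest, as it was for IGF2BP1, and these are the end libraries of the first component. The log2 fold changes were 0.06 (SE 0.12) for IGF2BP2 and -0.03 (SE 0.13) for IGF2BP3. With both end libraries left out they were -0.09 (SE 0.11) and -0.25 (SE 0.09), and IGF2BP1 was 0.04 (SE 0.09). None of the 3 genes passed edgeR's test in those fits. IGF2BP3 overlaps the annotated span of MALSU1 (1104 to 1580 counts per library), and no source used here says how reads of overlapping genes were divided.

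**Figure D2:**
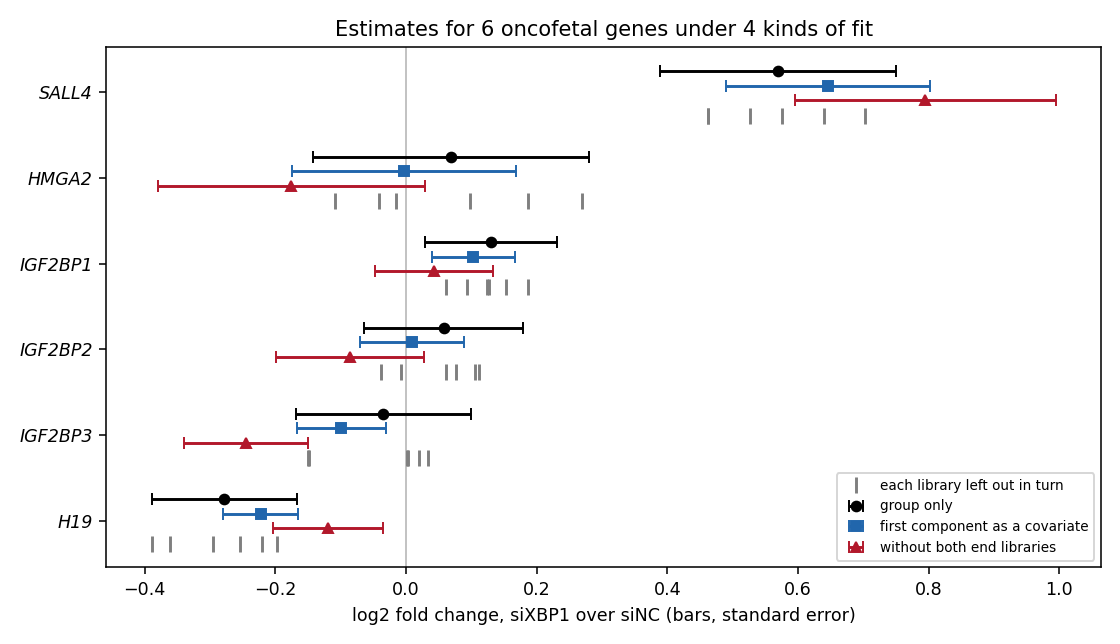
Log2 fold changes, siXBP1 over siNC, of the 6 genes: circles from the fit with group only, squares with the first component as a covariate, triangles without both end libraries (bars, standard error), and ticks for the 6 fits with a library left out. SALL4 and IGF2BP1 stay above 0 and H19 below 0 in all of these fits, while HMGA2, IGF2BP2 and IGF2BP3 lie on both sides of 0.

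Of 32 other genes of the let-7 list, which holds the processing machinery and known targets, 29 were tested and 0 were called (17 estimates above 0 and 12 below, median log2 fold change 0.02). THBS1 was the gene of the list whose groups did not overlap, with siXBP1 higher, as 5.01% of all genes tested were. It was called once the first component was a covariate, where 1.2% of all genes were. That call is a description, since the component came from these same libraries. MYC, a let-7 target and oncogene, averaged 447 ± 28.1 CPM in siXBP1 and 435 ± 29.6 in siNC (n = 3 each). The lowest estimate among genes of at least 1 CPM was -0.20 (SE 0.15) for TARBP2, a partner of Dicer, and the highest 0.39 (SE 0.31) for PLAG1, a transcription factor that activates IGF2 (edgeR adjusted p = 0.9998 for both).

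Of 21 other genes that partner the IGF2BP proteins or write, erase and read m6A, an RNA methylation, 20 were tested and 0 were called (13 estimates above 0 and 7 below, median 0.01). YBX1, an abundant RNA-binding protein that shares granules with IGF2BP1, averaged 1109 ± 59.1 CPM in siXBP1 and 1109 ± 35.0 in siNC. WTAP, the adaptor of the m6A methyltransferase, averaged 190 ± 7.54 CPM in siXBP1 and 154 ± 2.22 in siNC, and the groups did not overlap (log2 fold change 0.30, SE 0.09, edgeR adjusted p = 0.9998). It was called with the first component as a covariate, where 1.2% of all genes were, and this too is a description only. ALKBH5, an m6A demethylase, averaged 85.9 ± 9.05 CPM in siXBP1 and 99.9 ± 6.00 in siNC, again without overlap (-0.22, SE 0.11, edgeR adjusted p = 0.9998). Among all genes tested, 8.75% had no overlap in either direction.

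H19 (gene ID 283120, chromosome 11, 1995176 to 2001266) had 2000.1, 1647 and 1559 CPM in the siXBP1 libraries, against 2346, 1885 and 2087 CPM in the siNC libraries. The groups overlapped, since siXBP1 replicate 1 exceeded siNC replicate 2. The highest value was in siNC replicate 1 and the lowest in siXBP1 replicate 3, the reverse of the order seen for the IGF2BP genes. The means were 1735 ± 233 CPM in siXBP1 and 2106 ± 231 CPM in siNC (SD, n = 3 each), and the first of these is 82.4% of the second. The log2 fold change was -0.28 (SE 0.11) and was not called. It lay between -0.39 and -0.20 with a library left out, and was -0.22 (SE 0.06) with the first component as a covariate and -0.12 (SE 0.08) without both end libraries. The part of that component in the difference was not tested. The annotated span of H19 overlaps that of MRPL23, which had 853 to 1308 counts per library.

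IGF2, the imprinted neighbour of H19, has no row, and its antisense transcript IGF2-AS had 0 to 8 counts per library. Of 18 imprinted growth genes other than H19 and IGF2, 13 have a row and 10 were tested, with 0 called (3 estimates above 0 and 7 below, median -0.02). GRB10, an adaptor that dampens insulin and IGF receptor signals, averaged 129 ± 7.78 CPM in siXBP1 and 117 ± 5.30 in siNC. The highest and lowest estimates among genes of at least 1 CPM belonged to low transcripts. SLC38A4, an amino acid transporter, had 1.61 ± 0.196 CPM in siXBP1 and 0.818 ± 0.304 in siNC (0.98, SE 0.36), and NNAT had 0.831 ± 0.180 CPM in siXBP1 and 1.46 ± 0.138 in siNC (-0.81, SE 0.32). Neither pair of groups overlapped, nor did those of SGCE, lower in siXBP1, beside 8.75% of all genes tested in either direction. SLC38A4 and NNAT had an edgeR adjusted p = 0.9998.

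A receptor that would receive IGF2, IGF1R, was transcribed. Of 23 other genes of the IGF axis, 18 were tested and 0 called (8 estimates above 0 and 10 below, median -0.04). IGF1R, the main signalling receptor, averaged 211 ± 22.3 CPM in siXBP1 and 209 ± 9.09 in siNC. STC2, a secreted inhibitor of the protease that frees IGFs, averaged 608 ± 31.1 CPM in siXBP1 and 650 ± 45.7 in siNC (n = 3 each). PAPPA2, a protease of that kind, had the highest estimate of such genes of at least 1 CPM (0.93, SE 0.40) at 1.35 ± 0.457 CPM in siXBP1 and 0.706 ± 0.185 in siNC. The lowest of them was -0.37 (SE 0.34) for STC1. IGF1 was the gene of the list whose groups did not overlap, with siXBP1 lower, as 3.74% of all genes tested were.

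GPC3 has no row, but other glypicans could be read. GPC1 averaged 75.4 ± 14.9 CPM in siXBP1 and 84.3 ± 10.1 in siNC, GPC5 12.8 ± 1.05 CPM in siXBP1 and 13.1 ± 0.833 in siNC, and GPC2 1.07 ± 0.119 CPM in siXBP1 and 1.52 ± 0.354 in siNC (n = 3 each). GPC2 was lower in all 3 siXBP1 libraries (-0.51, SE 0.31), as 3.74% of all genes were. EXT2, an enzyme that builds the heparan sulfate chain, was higher, with 107 ± 3.05 CPM in siXBP1 and 96.6 ± 2.92 in siNC (0.15, SE 0.09). SULF1, which removes sulfate from the chain, was higher as well, with 1.83 ± 0.0964 CPM in siXBP1 and 1.18 ± 0.485 in siNC (0.63, SE 0.34), as 5.01% of all genes were. All 3 had an edgeR adjusted p = 0.9998. GPC4 and GPC6 had no more than 4 and 2 counts in any library. Of 20 glypicans other than GPC3 and genes of heparan sulfate, the sugar chain they carry, 17 were tested and 0 called (8 estimates above 0 and 9 below, median -0.01). SDC4, a syndecan of the cell surface, averaged 371 ± 29.2 CPM in siXBP1 and 308 ± 31.8 in siNC (0.27, SE 0.10), with overlapping groups. It was called with the first component as a covariate (log2 fold change 0.32), where 1.2% of all genes were, again a description only.

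**Figure D3:**
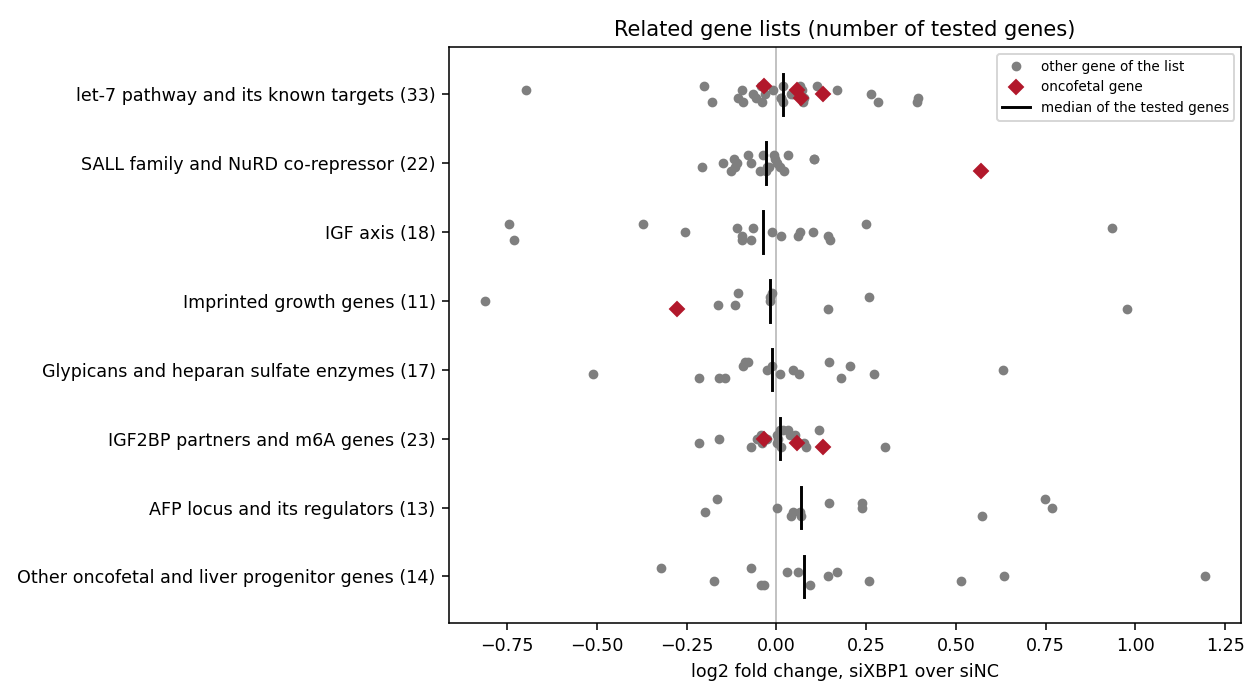
Log2 fold changes, siXBP1 over siNC, of the tested genes of 8 related lists, with the oncofetal genes as diamonds and the median of each list as a bar. The medians lie between -0.04 and 0.08, and the SALL4 diamond lies at 0.57, with the other tested genes of its list between -0.21 and 0.11.

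AFP (gene ID 174, chromosome 4, 73436221 to 73456174) had 0, 6 and 2 counts in the siXBP1 libraries, against 0, 2 and 0 in the siNC libraries. Each group held a library with no count, and the highest value in any library was 0.155 CPM. The floor is 0.0780 CPM in siXBP1 replicate 1 and 0.0771 CPM in siNC replicate 1, and may be too low here too, since every AFP count is even. Both groups were near it, and no fold change is given. HNF4A, a nuclear receptor that activates liver genes, had at most 20 counts in any library. Of 19 other genes of the AFP locus and its regulators, 13 were tested and 0 called (11 estimates above 0 and 2 below, median 0.07). CTNNB1, which encodes beta-catenin, averaged 246.5 ± 10.2 CPM in siXBP1 and 247 ± 7.66 in siNC, and CEBPB 132 ± 20.2 CPM in siXBP1 and 148 ± 34.9 in siNC. ZHX2, a repressor of AFP in mouse liver, was the gene of the list whose groups did not overlap, with siXBP1 higher, as 5.01% of all genes tested were. NR5A2, a liver nuclear receptor and activator of AFP, had 1.71 ± 0.196 CPM in siXBP1 and 1.02 ± 0.573 in siNC (0.75, SE 0.41, edgeR adjusted p = 0.9998).

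HepG2 is known as a line that secretes AFP and other liver plasma proteins, so the label was set against marker genes. Of 25 hepatocyte markers, 17 have a row and 2 had a mean of at least 1 CPM. CPS1, the first enzyme of the urea cycle, was the most abundant. The summed level of the list lay between 973 and 1147 CPM in siXBP1 and between 1027 and 1215 CPM in siNC libraries, nearly all of it CPS1 (1037 ± 94.0 CPM in siXBP1 and 1117 ± 94.1 in siNC, n = 3 each). TF (transferrin) reached no more than 4 counts, APOA2 no more than 10 and SERPINA1 no more than 16 in any library. Of 13 markers of other epithelial lines, 7 had at least 1 CPM, led by KRT17 (3373 ± 389 CPM in siXBP1 and 3356 ± 516 in siNC) and KRT7 (1449 ± 200 CPM in siXBP1 and 1496 ± 219 in siNC). Of 13 mesenchymal markers, 11 had at least 1 CPM, among them VIM (1185 ± 90.0 CPM in siXBP1 and 1167 ± 63.4 in siNC). Summed over the list, epithelial markers lay between 4441 and 5632 CPM in siXBP1 and between 4563 and 6058 in siNC libraries. The mesenchymal sum lay between 2702 and 2901 CPM in siXBP1 and between 2666 and 2698 CPM in siNC. These ranges did not overlap but nearly touched, and no share of sums without overlap was worked out to set beside them. The part of the mesenchymal sum in the SALL4 difference was not tested. Each of the 11 tested mesenchymal markers had overlapping groups. Endothelial markers summed to 14.3 to 16.8 CPM in siXBP1 and 16.0 to 18.7 in siNC. Leukocyte markers, nearly all CD68, summed to 40.5 to 43.8 CPM in siXBP1 and 37.5 to 44.2 in siNC. In these lists the groups did not overlap for PECAM1 and TEK, higher in siXBP1, and for CD14, lower in siXBP1. Each averaged below 1 CPM, and 8.75% of all genes tested had no overlap in either direction. How these libraries relate to the labelled line was not tested, and the values of the oncofetal genes hold for cells labelled HepG2.

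**Figure D4:**
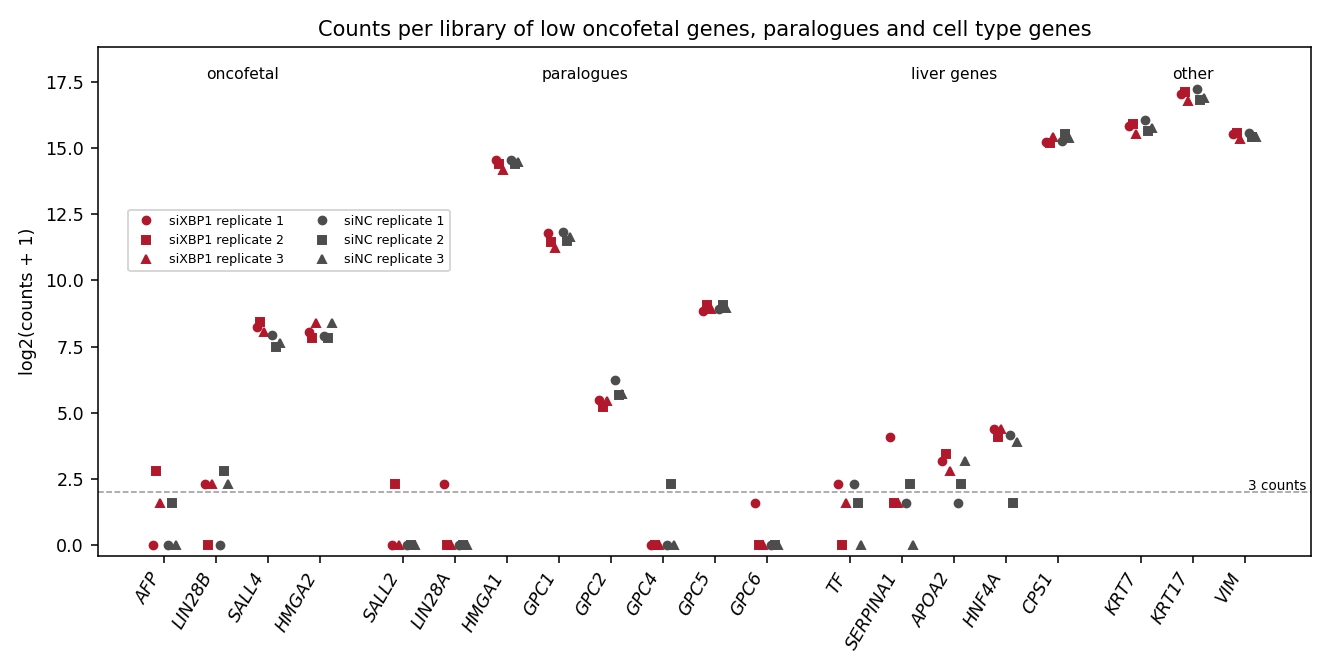
Counts per library on a log2(counts + 1) scale for AFP, LIN28B, SALL4 and HMGA2, paralogues of oncofetal genes, liver genes and keratin and vimentin genes, with siXBP1 libraries left of siNC libraries and a dashed line at 3 counts. AFP, LIN28B, SALL2, LIN28A, GPC4, GPC6 and TF lie around or below that line in both groups, while HMGA1, CPS1, KRT7, KRT17 and VIM lie far above it.

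Other oncofetal and liver progenitor genes were in part transcribed and in part below the filter. Of 29 such genes other than GPC3, 25 have a row and 14 were tested, with 0 called (9 estimates above 0 and 5 below, median 0.08). The most abundant was L1CAM, a neural adhesion protein, at 694.5 ± 64.6 CPM in siXBP1 and 716 ± 21.9 in siNC. ALPP, the placental alkaline phosphatase, averaged 424 ± 62.7 CPM in siXBP1 and 479 ± 53.1 in siNC. PEG10, an imprinted gene derived from a retrotransposon, averaged 66.9 ± 10.3 CPM in siXBP1 and 55.9 ± 8.52 in siNC (n = 3 each, log2 fold change 0.26, SE 0.15, edgeR adjusted p = 0.9998). MDK, a heparin-binding growth factor, was the gene of the list whose groups did not overlap, with siXBP1 higher, as 5.01% of all genes tested were. Germ cell and pluripotency markers, with which SALL4 is expressed in embryonic cells, had 2 of 12 genes at 1 CPM or more, TFAP2C (11.5 ± 1.64 CPM in siXBP1 and 11.1 ± 1.10 in siNC) and DPPA2 (4.65 ± 0.460 CPM in siXBP1 and 4.05 ± 0.214 in siNC). DPPA2 was higher in all 3 siXBP1 libraries without overlap, as 5.01% of all genes tested were (log2 fold change 0.20, SE 0.17, edgeR adjusted p = 0.9998). Their summed level lay between 14.9 and 18.0 CPM in siXBP1 and between 13.7 and 16.5 CPM in siNC libraries, and its part in the SALL4 difference was not tested.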

How the data were processed

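The authors deposited raw counts of reads for each gene in 6 libraries. A stranded TruSeq kit was used, per the labels' protocols. STAR 2.5.2a, featureCounts 1.5.0 and hg38 appear in the submitters' processing notes. The strand setting and the annotation were not given in the sources used. RefSeq names (GRCh38.p14) were found for 18526 IDs, and 29 kept their ID.

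Counts were filtered with filterByExpr, scaled with TMM and tested with edgeR 4.0.16 (R 4.3.3), quasi-likelihood, two-sided, group as the only term, 4 residual degrees of freedom, Benjamini-Hochberg adjustment over 14337 genes, threshold 0.05. The SE is the size of the log2 fold change divided by the square root of F. The procedure was run on simulated counts, drawn independently for each library and without a first component like that of these libraries. The planted changes were larger than any estimate of the oncofetal genes, so it does not cover changes as small as theirs. P-values measure the spread between these libraries, which may be technical. No 2 replicates agreed within sampling noise. Principal components were taken over 11528 genes averaging 100 or more counts. Alternatives were other scalings and filters, DESeq2 1.42.0, limma-voom (limma 3.58.1), a replicate block, leaving out libraries, the first component as a covariate, halved counts and a threshold of 0.01.

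The genes, lists and alternatives were chosen with earlier results of these data known. Named were the 10 genes, XBP1, paralogues, the 5 genes most like SALL4 and, from each list without a called gene, the 2 most abundant and the highest and lowest estimates among genes of at least 1 CPM. TF, APOA2, SERPINA1, HNF4A, CRBN, THBS1, MTA1, IGF1, SGCE, ZHX2 and MDK were named after their values were seen. So were IGF2-AS, MALSU1, MRPL23, MIRLET7BHG, MIRLET7D, MIR100HG, MIR99AHG, PECAM1, TEK and CD14. Values of 1 gene named by this rule are not reported here. Transcript lengths were not used here. Rankings of genes by abundance and summed levels of lists are in CPM and are not corrected for length.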

Additional observations from a re-analysis of the deposited data

How the results depend on the processing

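SALL4 kept a positive and H19 a negative estimate under all 17 alternatives, and IGF2BP1 a positive one. The count of oncofetal genes past edgeR's threshold was 0 in the fit with group only and 1 with the first component as a covariate or without both end libraries of that component; it was 0 under the other alternatives. That 1 gene is SALL4, whose rise in this contrast was known when the set was picked, so the count is a description and no test of it. The count over all genes was 1, against 0 with upper-quartile factors, 15 with DESeq2, 172 with the first component as a covariate, 702 without both end libraries, 0 at a threshold of 0.01, and 0 to 1 with a library left out (0 without siXBP1 replicate 1 or 2 or siNC replicate 2 or 3). Signs turned for small estimates. HMGA2 was -0.0035 in the covariate fit. Without both end libraries HMGA2 was -0.18 and IGF2BP2 -0.086. With a library left out, HMGA2 ran from -0.11 to 0.27, IGF2BP2 from -0.039 to 0.11 and IGF2BP3 from -0.15 to 0.033; the cause was not tested. Whether replicate numbers pair the libraries could not be decided with 3 libraries per group. Deviations from the group means correlated at 0.61, -0.38 and 0.45 for numbers 1, 2 and 3. Among unlike numbers, siXBP1 replicate 3 gave 0.67 with siNC replicate 2 and -0.77 with siNC replicate 1. With the replicate block 1 gene was called, and SALL4's estimate was 0.57. TMM-scaled CPM moved each of 12 group means by less than 1 SD. Depth limits what can be said of AFP and LIN28B, with 0 to 6 counts per library.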

Other observations

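Rows for let-7 genes, read after the values were seen, add to the account of the let-7 targets. MIRLET7BHG, the host transcript of let-7b, averaged 4.47 ± 1.21 CPM in siXBP1 and 6.49 ± 0.276 CPM in siNC (SD, n = 3 each), with a log2 fold change of -0.53 (SE 0.21, edgeR adjusted p = 0.9998). It was lower in all 3 siXBP1 libraries without overlap, as 3.74% of all genes tested were. The MIRLET7D row averaged 0.762 ± 0.0895 CPM in siXBP1 and 0.551 ± 0.122 CPM in siNC and was higher without overlap, as 5.01% of genes were. Libraries of this kind do not measure mature microRNAs, so neither value gives a let-7 level. MIR100HG, host of let-7a-2, averaged 14.6 ± 3.30 CPM in siXBP1 and 11.6 ± 2.45 in siNC, and MIR99AHG, host of let-7c, 5.03 ± 0.856 CPM in siXBP1 and 5.44 ± 0.932 in siNC, both with overlap.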
